A study of Mus musculus with 9 samples.

Results

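A set of 10 transcription factors that maintain haematopoietic stem cells was followed through the RNA-seq libraries: Hlf, Mllt3, Mycn, Prdm16, Erg, Fli1, Etv6, Tal1, Lmo2 and Lyl1. They were taken by gene symbol from the count table, where all 10 of 10 were found among 24060 named rows, and all 10 were among the 13355 genes that passed the filter on low counts. The cells were LSKs (Lin-Sca1+Kit+), the part of the bone marrow where stem cells and their multipotent offspring are found. The labels give C57BL/6 as the strain and 4 months as the age in every group. The study describes the sequenced LSKs as taken 4 months after transplantation. The labelled 4 months therefore need not be the age of the mice or of the donor cells. The 3 control libraries are labelled as C57BL/6 cells with no transgene named. The 2 NHD13 libraries are labelled with the NUP98-HOXD13 fusion under the Vav promoter, which is active throughout the blood system. The 4 libraries labelled NHD13/MSI2, called NHD13/MSI2 below, combined the same fusion with a doxycycline-inducible MSI2 (KH2-Col1A1-tet-on-MSI2/ROSA26-rtTA). The study profiled the mice after 3 months of doxycycline, and 3 months of induction are recorded for every library, control and NHD13 included. Whether the control and NHD13 mice received doxycycline itself is not stated separately in the sources used here. By the study's methods the bone marrow was transplanted with CD45.1+ helper cells into lethally irradiated recipients, so the donor cells had developed in a host that also received normal marrow. The labels do not say that each library is a separate mouse, and p-values measure only the spread between these libraries.

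Some features of the libraries bear on every value below. Totals ranged from 19242153 to 23013493 counts. Msi2 itself did not rise with its label: its CPM (counts scaled to the library size with TMM factors) ranged from 223 to 316 in control and from 111 to 139 in NHD13, and in the labelled libraries it was 77.1 to 88 in 3 replicates and 241 in replicate 4. Counts on the mouse gene show an MSI2 transgene of another species only as far as its reads aligned there, and this was not tested, so the identity of that group is taken from its label alone. Hoxd13 was at 0 counts in each control library, against 13 to 25 counts in the others. Replicate 4 of NHD13/MSI2 stood apart with a TMM factor of 0.7852, where the other 8 libraries had 0.9689 to 1.087. Control replicates 1 and 3 expressed Xist and lacked the Y-linked Eif2s3y, whereas control replicate 2 and all the other libraries showed the reverse. The names of these controls differ as well, with MPP and HSC in those of replicates 2 and 3 and bulk in that of replicate 1, although the cell type of all is given as LSK. The library name of NHD13 replicate 2 does not carry the word NHD13, and that library had 15 counts of Hoxd13.

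Haematopoietic stem cells keep their identity through a set of transcription factors that act together on shared enhancers. Tal1 and Lyl1 are related basic helix-loop-helix proteins that pair with E proteins, and the LIM-only protein Lmo2 bridges them to GATA factors. Erg and Fli1 are closely related ETS activators that bind many of the same elements, while Etv6 is an ETS repressor needed by adult stem cells in the bone marrow. Hlf is a PAR bZIP factor largely restricted to stem cells within the blood, Prdm16 is a zinc finger protein of the PRDM family that preserves stem cells, Mycn is a MYC family member that acts beside Myc in stem cell survival and proliferation, and Mllt3 (AF9) is a chromatin reader that links acetylated histones to DOT1L and to transcription elongation.

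The genes lie on 8 chromosomes of GRCm38 (GENCODE M21), with only Mllt3, Prdm16 and Tal1 on the same one. The 5 that turned out to fall in NHD13/MSI2 are Hlf (chr11:90336536-90390895, minus strand), Mllt3 (chr4:87769925-88033364, minus), Mycn (chr12:12936093-12941914, minus), Prdm16 (chr4:154316125-154636873, minus) and Tal1 (chr4:115056426-115071755, plus). The others are Erg (chr16:95359169-95586593, minus), Fli1 (chr9:32422204-32542861, minus), Etv6 (chr6:134035700-134270158, plus), Lmo2 (chr2:103957986-103981878, plus) and Lyl1 (chr8:84701457-84704715, plus). On that annotation Prdm16, Fli1, Etv6, Lmo2 and Lyl1 overlap other genes, of which Nfix, on the strand opposite to Lyl1, was tested; whether the counting used strand is not given in the sources used here, so reads of overlapping genes cannot be told apart from theirs. Nfix was at 28.9 ± 3.58 CPM in control (SD, n = 3), 37 ± 15 in NHD13 (SD, n = 2) and 28.3 ± 15.1 in NHD13/MSI2 (SD, n = 4). Its mean was below that of Lyl1 in every group. Its highest NHD13/MSI2 library was replicate 4, at 50.8 CPM. That library also held the lowest value of Lyl1, 52.7 CPM.

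The 250 bases before the annotated start were read for the 8 members in the RefSeq promoter table (GRCm38.p6), taking the start nearest to the gene's 5′ end. The promoters of Hlf and Tal1, which fell, and of Lyl1, which did not, are shown because they were the ones with a match to a GATA or an ETS motif, the motifs of factors that work with this set. Capitals mark the matches found on either strand to GATAA, to the ETS motif CCGGAA, and to the E-box CAGNTG bound by TAL1 and E proteins.
Hlf (chr11:90390918-90391167, minus strand): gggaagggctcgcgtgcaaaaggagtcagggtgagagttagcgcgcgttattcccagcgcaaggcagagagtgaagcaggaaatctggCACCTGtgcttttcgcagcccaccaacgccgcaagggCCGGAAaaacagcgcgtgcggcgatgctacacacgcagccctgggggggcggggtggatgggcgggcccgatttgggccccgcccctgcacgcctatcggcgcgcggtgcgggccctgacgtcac
Tal1 (chr4:115056176-115056425, plus strand): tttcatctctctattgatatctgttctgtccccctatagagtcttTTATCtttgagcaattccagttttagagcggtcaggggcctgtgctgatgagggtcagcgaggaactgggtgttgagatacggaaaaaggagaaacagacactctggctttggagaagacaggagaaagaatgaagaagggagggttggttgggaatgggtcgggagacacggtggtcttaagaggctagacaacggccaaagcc
Lyl1 (chr8:84701207-84701456, plus strand): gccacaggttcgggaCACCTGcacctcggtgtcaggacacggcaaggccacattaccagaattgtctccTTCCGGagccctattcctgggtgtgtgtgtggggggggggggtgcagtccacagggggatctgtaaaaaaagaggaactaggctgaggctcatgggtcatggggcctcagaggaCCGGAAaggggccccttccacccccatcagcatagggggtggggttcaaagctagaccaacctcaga
The Hlf window held 1 ETS and 1 E-box match, the Tal1 window 1 GATA match, and the Lyl1 window 2 ETS matches and 1 E-box match. Of the other members with a sequence, Mllt3 held 1 E-box match, and Mycn, Prdm16, Erg and Etv6 held no match. The RUNX letters TGTGGT, the MYC E-box CACGTG and the PAR bZIP site TTACGTAA were searched as well and were in none of the 8 windows. Among all 32851 promoters of the same length, 22.6% held GATAA, 12% CCGGAA, 44.8% CAGNTG, 14% TGTGGT, 6.02% CACGTG and 0.113% TTACGTAA. A match is a run of letters and not an occupied site. The windows of Hlf and Mllt3 were 67.2% and 69.2% G or C with 26 and 23 CpGs. Those of Prdm16 and Mycn, which also fell, were 62.4% and 54.8% with 22 and 11 CpGs, and that of Tal1 was 48.8% with 6. Among members that did not fall, Etv6 was at 60.4% with 16 CpGs, Lyl1 at 60% with 5 and Erg at 48.8% with 14. The median of all promoters was 52.4% and 6.

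The first comparison asked what the addition of MSI2 changed in NHD13 cells. Hlf, Mllt3, Mycn, Prdm16 and Tal1 fell in the libraries labelled NHD13/MSI2, by 8.53-fold for Tal1 to 58.2-fold for Hlf, and Erg, Fli1, Etv6, Lmo2 and Lyl1 did not pass the test in either direction. Thus 5 of 10 members were lower and 0 higher at an adjusted p under 0.01 (edgeR's quasi-likelihood test over all genes, Benjamini-Hochberg adjustment), where 3.17% of all genes tested were called, 2.58% lower and 0.584% higher, and 7 of the 10 had an unadjusted p under 0.05, as did 21.7% of all genes tested. DESeq2 called 1 member higher, Etv6. The median log2 fold change of the members was -1.59, against -0.03 for all genes. All 4 NHD13/MSI2 libraries lay below both NHD13 libraries for 5 of 10 members, where 16.9% of all genes tested did, and above them for 2 of 10, where 13% did. The number of members past 0.01 rested on single libraries: Hlf and Mycn alone passed without control replicate 1, 2 or 3, without NHD13 replicate 1 or without NHD13/MSI2 replicate 2, and all 5 passed without replicate 4. Mllt3, Prdm16 and Tal1 stayed lower in each of these fits, with log2 fold changes of -4.54, -5.23 and -3.09 without control replicate 1, for example. The size of the fall moved by over 1.5 times without NHD13 replicate 1 for Hlf (-4.98), Mllt3 (-3.90) and Mycn (-3.52), without NHD13/MSI2 replicate 4 for Hlf (-6.60) and without NHD13/MSI2 replicate 3 for Prdm16 (-6.50). When the 2 groups were fitted alone, 0 members passed at 0.01, with adjusted p from 0.0147 for Mycn to 0.0391 for Mllt3. Hlf, Mllt3, Mycn and Prdm16 also stand in a signature gene list that the study drew from these samples, which is therefore no independent evidence of their direction.

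**Figure D1:**
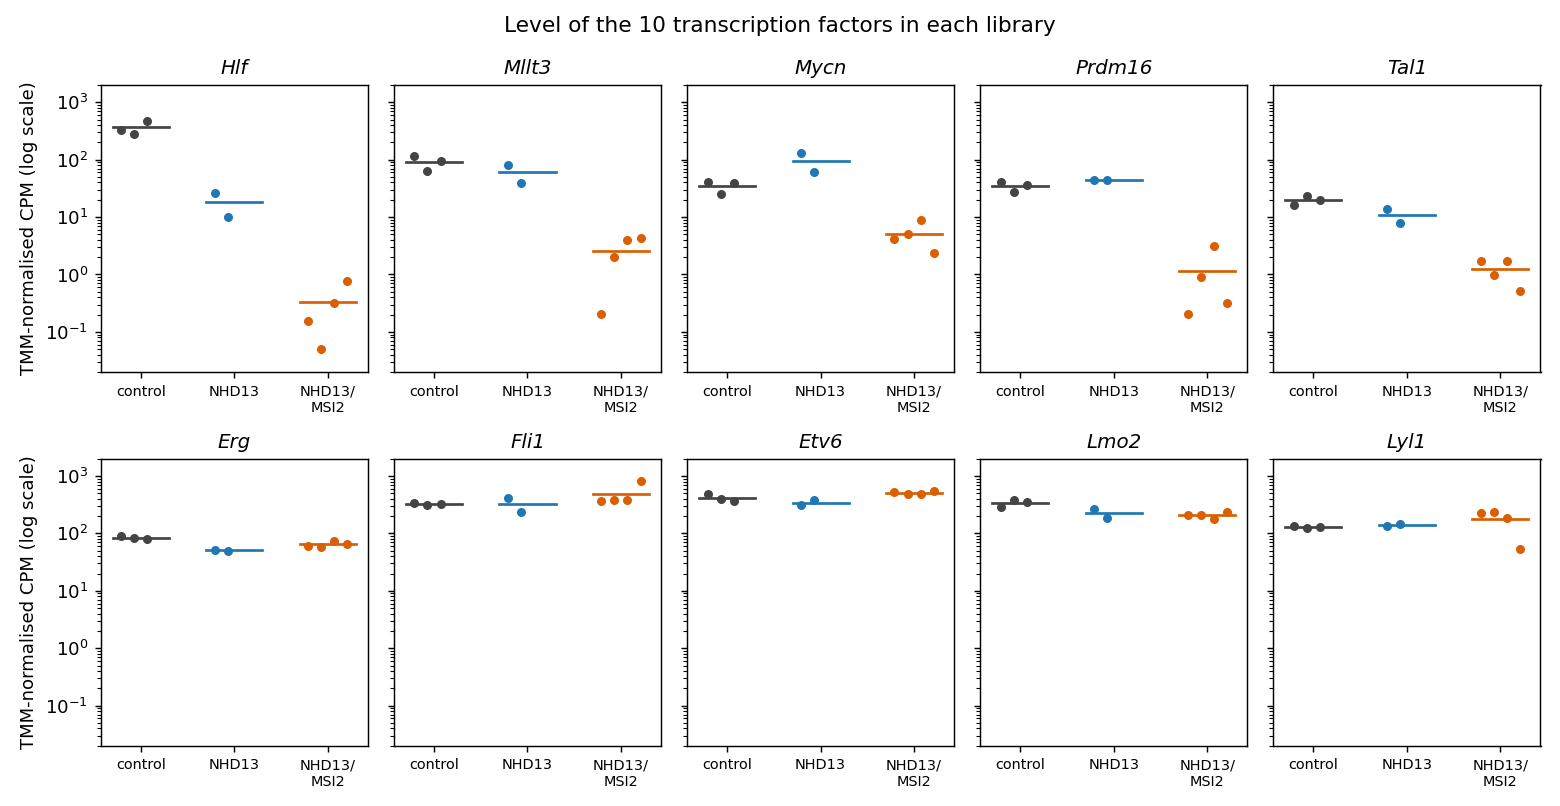
TMM-normalised CPM (log axis) of each transcription factor in the 3 control, 2 NHD13 and 4 NHD13/MSI2 libraries, with 1 point per library, replicates from left to right, and a bar at the group mean. In the upper row the 4 NHD13/MSI2 libraries lie below all others for each gene, while in the lower row the groups lie within a narrow range apart from replicate 4 for Fli1 (828 CPM) and Lyl1 (52.7 CPM).

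Hlf was the member with the steepest fall. It was at 332, 284 and 477 CPM in the control libraries, at 26.1 and 10 CPM in NHD13, and at 0.155, 0.0499, 0.317 and 0.779 CPM in NHD13/MSI2, where these values stand for 3, 1, 7 and 12 counts. The 3 groups did not overlap at any point and formed a descending series from control through NHD13 to NHD13/MSI2. The log2 fold change over NHD13 was -5.86 ± 0.60 (SE; adjusted p = 0.00108, edgeR). Over control it was -10.2 ± 0.63 (adjusted p = 2.07e-05, edgeR), the 20th lowest value of the 13355 genes. Hlf was also the only member that passed the test in NHD13 over control, at -4.33 ± 0.62 (adjusted p = 0.00631, edgeR).

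Prdm16 and Mllt3 had a different shape, in which the NHD13 libraries lay in or near the control range. Prdm16 was at 41.1, 27.3 and 36.3 CPM in control and at 44.4 and 44.8 CPM in NHD13, and it was at 0.207, 0.898, 3.17 and 0.325 CPM in NHD13/MSI2. Every NHD13/MSI2 library was below every other library, with replicate 3 the highest of the 4. The log2 fold change over NHD13 was -5.23 ± 0.74 (SE; adjusted p = 0.00383, edgeR), a 37.4-fold fall. Mllt3 was at 116, 63.3 and 96 CPM in control, at 81 and 39.6 CPM in NHD13 and at 0.207, 1.99, 3.94 and 4.28 CPM in NHD13/MSI2. Control and NHD13 overlapped in Mllt3, and NHD13/MSI2 replicate 1, with 4 counts, was well below the other 3. Its log2 fold change over NHD13 was -4.54 ± 0.70 (SE; adjusted p = 0.00547, edgeR). In NHD13 over control neither gene passed the test, with intervals (95%) of -1.27 to 1.97 for Prdm16 and -2.22 to 1.01 for Mllt3 that leave room for a change of several fold.

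Mycn had its highest values in NHD13. It was at 41.1, 24.8 and 38.6 CPM in control, at 132 and 60 CPM in NHD13, and at 4.19, 5.04, 8.82 and 2.4 CPM in NHD13/MSI2. Both NHD13 libraries were above all controls, but the difference did not pass the test (log2 fold change 1.46 ± 0.48, adjusted p = 0.183, edgeR). The log2 fold change in NHD13/MSI2 was -4.22 ± 0.47 over NHD13 (SE; adjusted p = 0.00132, edgeR) and -2.76 ± 0.43 over control (adjusted p = 0.00198, edgeR), and these comparisons share the NHD13/MSI2 libraries.

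Within the Tal1, Lmo2 and Lyl1 complex, Tal1 fell and the others did not pass the test. Tal1 was at 16.3, 23.1 and 20 CPM in control, at 13.6 and 7.8 CPM in NHD13, and at 1.71, 0.997, 1.72 and 0.519 CPM in NHD13/MSI2. The groups did not overlap, as with Hlf, although the step from control to NHD13 did not pass the test (-0.89 ± 0.46, adjusted p = 0.483, edgeR). The log2 fold change was -3.09 ± 0.43 over NHD13 (adjusted p = 0.00367, edgeR) and -3.98 ± 0.41 over control (adjusted p = 0.000277, edgeR). Lyl1, the closest relative of Tal1, was at 133, 124 and 129 CPM in control, at 135 and 143 CPM in NHD13, and at 228, 233, 186 and 52.7 CPM in NHD13/MSI2. Replicates 1 to 3 of NHD13/MSI2 thus lay above all others and replicate 4 lay below all others. With all libraries the log2 fold change of Lyl1 over NHD13 was 0.34 ± 0.46 (adjusted p = 0.743, edgeR), and without replicate 4 it was 0.65 (adjusted p = 0.00816, edgeR). Over control it was 0.44 (adjusted p = 0.5, edgeR) with replicate 4 and 0.75 (adjusted p = 0.000928, edgeR) without it, so 1 library decided whether Lyl1 was called. Lmo2 was at 284, 374 and 357 CPM in control, at 263 and 183 CPM in NHD13, and at 207, 213, 175 and 239 CPM in NHD13/MSI2. NHD13 and NHD13/MSI2 overlapped in Lmo2 (log2 fold change -0.09, 95% interval -0.55 to 0.36), and both were below all controls. Its value over control was -0.70 ± 0.18 (adjusted p = 0.0223, edgeR) in NHD13/MSI2 and -0.60 ± 0.22 (adjusted p = 0.242, edgeR) in NHD13, and neither passed at 0.01. The first of these did pass without NHD13/MSI2 replicate 4 (-0.76, adjusted p = 0.00718, edgeR), without scaling factors (-0.92, adjusted p = 0.00492, edgeR) and with DESeq2 (adjusted p = 0.00259).

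The 3 ETS factors changed by less than 1 log2 unit in every comparison, and none passed the edgeR test. Erg was at 88.9, 83 and 79.3 CPM in control, at 51.7 and 50.3 CPM in NHD13, and at 59.6, 58.6, 74.2 and 65 CPM in NHD13/MSI2. The control libraries were the highest and the NHD13 libraries the lowest, with no overlap of the 3 groups. The log2 fold change of Erg in NHD13 over control was -0.71 ± 0.16 (adjusted p = 0.0458, edgeR; 0.000521 with DESeq2, which called it), and in NHD13/MSI2 over control it was -0.38 ± 0.13 (adjusted p = 0.066, edgeR). Fli1 was at 343, 307 and 330 CPM in control, at 418 and 240 CPM in NHD13, and at 368, 379, 384 and 828 CPM in NHD13/MSI2. Replicate 4 was the highest of the 9 libraries, and the other 3 NHD13/MSI2 libraries lay between the NHD13 libraries. The log2 fold change of Fli1 over NHD13 was 0.57 (95% interval -0.26 to 1.41, adjusted p = 0.423, edgeR). Etv6 was at 485, 394 and 360 CPM in control, at 307 and 375 CPM in NHD13, and at 516, 484, 488 and 537 CPM in NHD13/MSI2. All NHD13/MSI2 libraries were above both NHD13 libraries, by a log2 fold change of 0.57 ± 0.18 (adjusted p = 0.0834, edgeR), and DESeq2 gave an adjusted p of 0.00969.

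**Figure D2:**
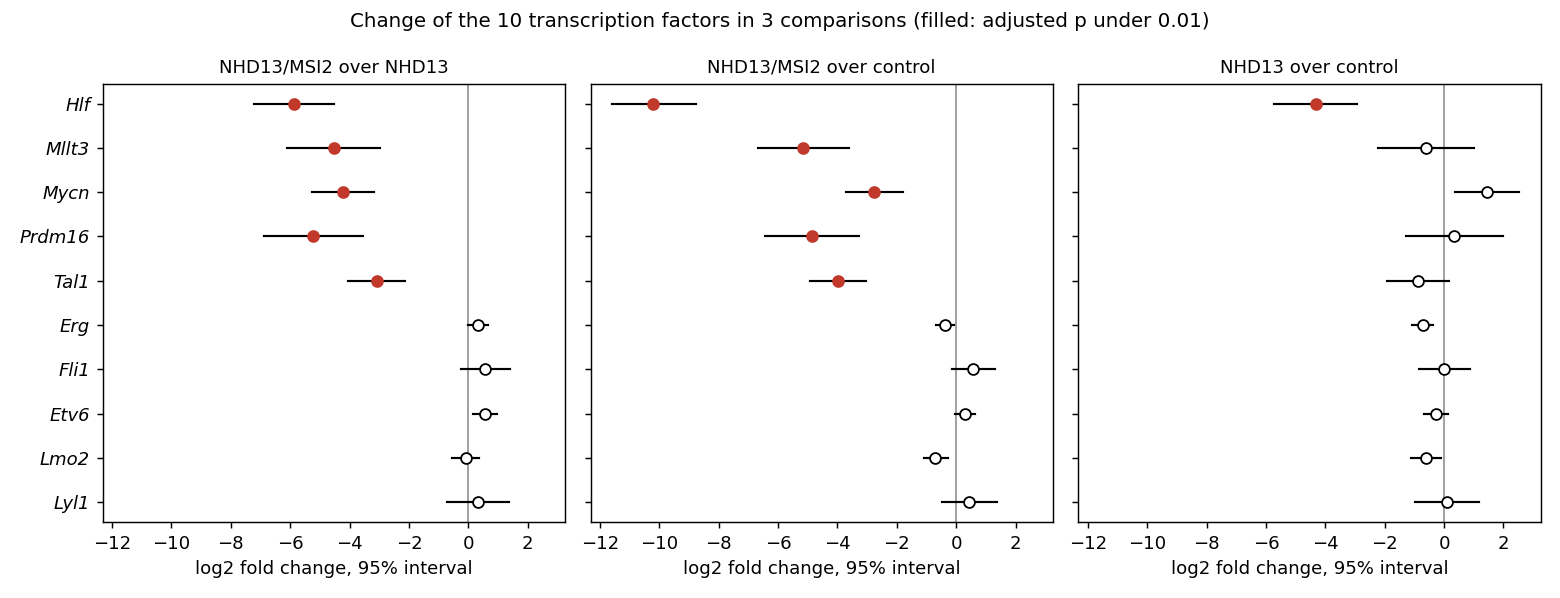
Log2 fold changes of the 10 transcription factors (rows) with 95% intervals in the 3 comparisons (panels), from edgeR's quasi-likelihood fit of all 9 libraries. Filled points have an adjusted p under 0.01: 5 in NHD13/MSI2 over NHD13, the same 5 genes in NHD13/MSI2 over control, and Hlf in NHD13 over control.

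The second comparison set NHD13/MSI2 against control. Hlf, Mllt3, Mycn, Prdm16 and Tal1 were again the members that fell, by 6.76-fold for Mycn to 1170-fold for Hlf. The 1170-fold rests on counts of 1 to 12 in the NHD13/MSI2 libraries. The call was made for 5 of 10 members, where 11% of all genes tested were called, 6.55% lower and 4.49% higher, and the median of the members was -1.73 against -0.01 for all genes. All 4 libraries lay below all controls for 7 of 10 members, where 20.4% of all genes tested did, and above them for 1 of 10, Fli1, where 15.3% did. Members called lower numbered 5 to 6 when any 1 library was left out, the sixth being Lmo2. Hlf reached -10.94 on the log2 scale without NHD13/MSI2 replicate 4, and Prdm16 reached -6.15 without replicate 3. With control replicate 2, which shared Xist and Eif2s3y status with the other groups, as the only control, 1 member passed, Hlf (adjusted p = 0.00221, edgeR). In that fit the log2 fold changes of the other 4 kept their sign. This comparison shares the NHD13/MSI2 libraries with the first, and the split of all called genes depended on scaling, with 59.4% of them lower under TMM and 73% without factors.

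The third comparison, NHD13 against control, asked what the fusion did alone. Hlf fell by 20.2-fold, and the other 9 members did not pass the test. The call for 1 of 10 members stands beside 1.03% of all genes tested that were called, 0.21% lower and 0.824% higher, and the members' median was -0.44 against 0.02. Both NHD13 libraries lay below all controls for 4 of 10 members, where 18.5% of all genes tested did, and above them for 3 of 10, where 18.9% did. Hlf lost the call when any 1 of the controls was left out, when either NHD13 library was left out, and without NHD13/MSI2 replicate 1 or 3. Its log2 fold change with 1 library left out ranged from -5.18 (without NHD13 replicate 1) to -3.82 (without NHD13 replicate 2). With control replicate 2 as the only control 0 members passed.

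Levels between genes were compared as CPM per kilobase of exon, taking all annotated exons of GENCODE M21 together. In control cells Lmo2 was highest at 156 ± 22.2 (SD, n = 3), followed by Fli1 at 93.5 ± 5.28, Lyl1 at 71.7 ± 2.55, Etv6 at 69 ± 10.8 and Hlf at 54.5 ± 15.1. Neighbours are called within their spread where their ranges of mean ± SD overlap, which held for Lyl1 and Etv6 and for Etv6 and Hlf. Below them were Erg at 24.1 ± 1.39, Mycn at 10.6 ± 2.67, Mllt3 at 7.65 ± 2.22, Tal1 at 4.52 ± 0.776 and Prdm16 at 3.74 ± 0.754, where Mycn and Mllt3, and Tal1 and Prdm16, were within their spread. In NHD13 Lmo2 (103 ± 26.2; SD, n = 2), Fli1 (94.4 ± 36.1), Lyl1 (77.2 ± 2.94) and Etv6 (57 ± 7.96) led, and Mycn, at 29.1 ± 15.4, took the place after Etv6 that Hlf had in control. Erg (14.7 ± 0.287), Mllt3 (5.02 ± 2.44), Prdm16 (4.78 ± 0.0284), Hlf (2.71 ± 1.69) and Tal1 (2.44 ± 0.932) followed. Lmo2 and Fli1, Fli1 and Lyl1, Mycn and Erg, Mllt3 and Prdm16, and Hlf and Tal1 were within their spread of each other. In NHD13/MSI2 the order had 2 tiers. Fli1 (141 ± 64.8; SD, n = 4), Lyl1 (97.2 ± 46.8), Lmo2 (96.5 ± 12.1), Etv6 (84.6 ± 4.16) and Erg (18.6 ± 2.06) stood above Mycn (1.55 ± 0.822), Tal1 (0.283 ± 0.134), Mllt3 (0.217 ± 0.157), Prdm16 (0.123 ± 0.148) and Hlf (0.0486 ± 0.0482). Hlf was thus among the upper 5 in control and the lowest in NHD13/MSI2. Within the upper tier only Erg, and within the lower tier only Mycn, stood apart from its neighbours by more than their spread.

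The shapes of the profiles were compared as the root mean square difference of log2 CPM, centred on each gene's mean over the 9 libraries. This is a description, since the libraries share groups. The 5 members that did not fall differed from each other by 0.31 (Erg and Lmo2) to 0.96 log2 units (Fli1 and Lyl1). Among those that fell, Mycn and Tal1 differed by 0.95, Mllt3 and Prdm16 by 1, and Hlf differed from Mllt3, the nearest of the 10, by 2.21. Tal1 was 1.99 from its relative Lyl1 and 1.68 from its partner Lmo2.

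**Figure D3:**
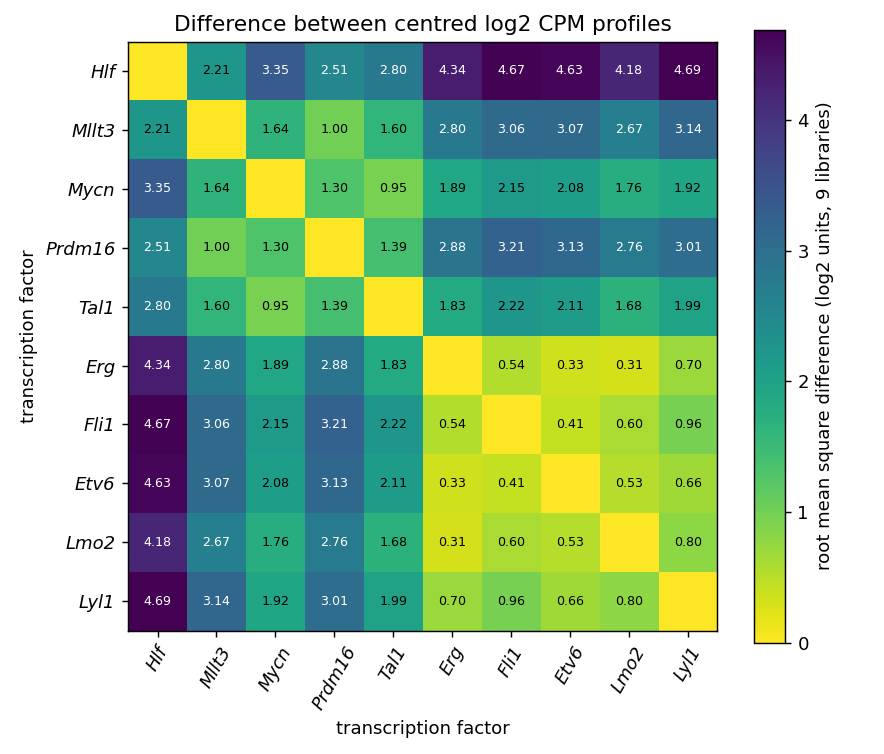
Root mean square difference, in log2 units over 9 libraries, between the centred log2 CPM profiles of each pair of transcription factors (rows and columns in the same order). The 5 genes at lower right (Erg, Fli1, Etv6, Lmo2, Lyl1) differ from each other by 0.31 to 0.96, and Hlf differs from every other gene by at least 2.21.

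Across 11911 genes with a mean of at least 1 CPM, the 2 genes nearest in profile to each member that fell were found by the same measure. For Tal1 these were Pnck (0.33 log2 units) and Klk8 (0.36), and for Prdm16 they were Chic1 (0.45) and Pkd2 (0.54). The nearest to Mycn were Plxdc2 (0.47) and Icos (0.49), both highest in NHD13, with 51 ± 30.9 and 9.03 ± 8.37 CPM there (SD, n = 2). Those nearest to Mllt3 were Art4 (0.52) and Sgce (0.59). Hlf had the most distant neighbours, Akr1c13 (1.07) and Arhgap32 (1.27), which descended from 79.3 ± 4.14 and 44.9 ± 1.05 CPM in control (SD, n = 3) to 12.6 ± 7.48 and 2.03 ± 1.48 in NHD13 (SD, n = 2) and to 0.358 ± 0.503 and 0.0743 ± 0.0981 in NHD13/MSI2 (SD, n = 4). With a prior count of 0.5 in place of 2, which weighs low values differently, 4 of these 10 neighbours were chosen again: Pnck, Klk8, Plxdc2 and Art4.

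Partners and relatives of the members were then counted from lists drawn up by family and known complex. Among the bHLH, LIM, GATA and RUNX partners of Tal1, Lyl1 and Lmo2, 0 of 17 tested genes were called in NHD13/MSI2 over NHD13 (edgeR; 5 had an unadjusted p under 0.05), where 3.17% of all genes tested were called and 21.7% had such a p. In NHD13/MSI2 over control 4 of the 17 rose and 2 fell, where 4.49% of all genes tested rose and 6.55% fell. Lmo4, a LIM-only relative of Lmo2, rose by 1.22 ± 0.15 on the log2 scale (adjusted p = 0.000653, edgeR), Runx1, which binds beside these factors, by 1.17 ± 0.18, and Ssbp2, a stabiliser of the LIM domain complex, by 0.86 ± 0.13. Gata3 fell by 4.38 on the log2 scale (SE 0.69), from 40.6 ± 10.6 CPM in control (SD, n = 3) to 1.93 ± 0.925 in NHD13/MSI2 (SD, n = 4). Of the other ETS factors tested, 0 of 16 were called over NHD13 (edgeR, with 3 at an unadjusted p under 0.05). Over control 0 of 16 rose and 2 fell, Ets2 (-2.71 ± 0.46) and Elf2 (-0.81 ± 0.12). This is near the 11% of all genes called in either direction, of which 6.55% of all genes tested fell. These calls over control leaned on single controls: Runx1, Ssbp2 and Ets2 lost theirs without any 1 of the 3, Gata3 without replicate 1 and Elf2 without replicate 3, and Ets2 also without NHD13/MSI2 replicate 1 or 3. With control replicate 2 as the only control these 5 and Lmo4 lost the call, with adjusted p from 0.0556 for Elf2 to 0.111 for Ssbp2 (edgeR), and kept their direction.

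Of the PRDM relatives of Prdm16 reported here, 0 of 8 tested genes were called over NHD13 (edgeR, with 1 at an unadjusted p under 0.05). Over control 4.49% of all genes tested rose and 11% were called in either direction. Of the 8, 0 fell and 1 rose, near the share called in either direction. This gene was Mecom, the relative closest to Prdm16, which went from 115 ± 34.5 CPM in control (SD, n = 3) to 266 ± 185 in NHD13 (SD, n = 2) and 1370 ± 231 in NHD13/MSI2 (SD, n = 4), and its rise over control of 3.57 ± 0.40 on the log2 scale passed the test (adjusted p = 0.000421, edgeR), though not with control replicate 2 as the only control (4.19, adjusted p = 0.0269, edgeR). Among the DOT1L and elongation partners of Mllt3, 2 of 14 fell over NHD13, where 2.58% of all genes tested were called lower. Mllt6 (AF17), another DOT1L partner, had a log2 fold change of -2.39 ± 0.33 (adjusted p = 0.00357, edgeR), and Eaf2, an ELL-associated factor, one of -4.25 ± 0.68 (adjusted p = 0.00623, edgeR). Mllt6 was the 1 gene of the 14 that fell over control (-2.03 ± 0.31), where 6.55% of all genes tested fell. Eaf2 was the 1 gene that rose in NHD13 over control (5.27 ± 0.79, adjusted p = 0.00806, edgeR), where 0.824% of all genes tested rose. NHD13 replicates 1 and 2 had 6.39 and 27.6 CPM of Eaf2, and without NHD13 replicate 2 its log2 fold change was 3.85 over control (adjusted p = 0.0623, edgeR) and -2.80 in NHD13/MSI2 over NHD13 (adjusted p = 0.063, edgeR). It also lost both calls without any 1 of the controls or without NHD13/MSI2 replicate 1, 2 or 3. Mllt6 lost its call over NHD13 without control replicate 2, either NHD13 library or NHD13/MSI2 replicate 1, 2 or 3, with log2 fold changes of -2.27 or below, and its call over control without control replicate 3. None of 11 genes of the MYC network and none of 3 relatives of Hlf (Dbp, Tef and Nfil3) was called in any comparison (edgeR). At an unadjusted p under 0.05 these were 1, 1 and 0 genes of the MYC network and 0, 1 and 1 relatives of Hlf, in these comparisons, in the order given above, where 21.7%, 32.8% and 13.5% of all genes tested had such a p.

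**Figure D4:**
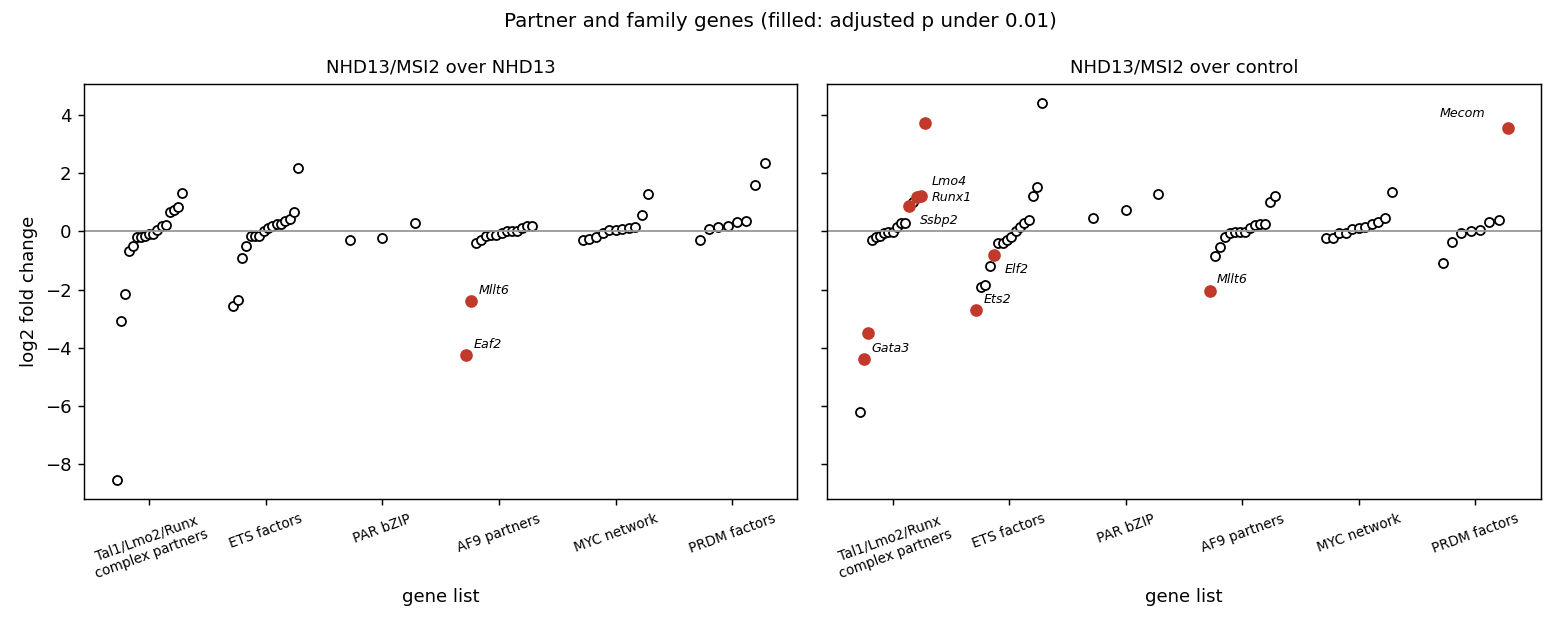
Log2 fold changes of the tested genes of 6 partner and family lists (horizontal axis, genes sorted within each list) in NHD13/MSI2 over NHD13 and over control. Filled points passed the test at an adjusted p under 0.01, and the genes described in the text are labelled; most open points lie near 0.

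Marker genes moved with the groups as well. Fewer cells of a type and less RNA per cell cannot be told apart in these bulk libraries. The 7 genes of the stem cell and LSK gate list were all detected in every library, with a summed level of 4300 to 4750 CPM in control, 2530 to 2760 in NHD13 and 2290 to 3010 in NHD13/MSI2. Kit and Cd34 made up most of this sum, and the members of the list differed. Slamf1 (CD150), a marker of stem cells within the gate, was at 19.3 ± 9.52 CPM in control (SD, n = 3), 32.6 ± 27.2 in NHD13 (SD, n = 2) and 0.547 ± 0.873 in NHD13/MSI2 (SD, n = 4), with 1 to 41 counts in the last. Procr averaged 32, 21.7 and 9.1 CPM and Flt3 614, 289 and 152 CPM in the same order, whereas Ly6a, which encodes Sca1, averaged 85.8, 58.7 and 260 CPM. Beside Hlf, Mllt3, Mycn, Prdm16 and Tal1, which fell, the 9 genes of the granulocyte-monocyte progenitor list summed to 1780 to 2500 CPM in control, 3760 to 4570 in NHD13 and 9580 to 16000 in NHD13/MSI2, with all 9 detected everywhere. Mpo alone averaged 1550, 3380 and 10800 CPM of this. Csf1r (11.2, 108 and 356 CPM) and Irf8 (36.6, 198 and 453 CPM) rose in the same order. Other genes of the list did not, such as Elane at 143, 79.1 and 109 CPM and Cebpe at 2.43, 1.82 and 2.73 CPM. Beside Tal1, which also acts in megakaryocytes and erythroid cells, the 7 megakaryocyte genes summed to 80.9 to 195 CPM in control, 92.3 to 596 in NHD13 and 9.8 to 38.1 in NHD13/MSI2, where 6 of 7 were detected and Gp1bb was at 0. The 7 erythroid genes reported here summed to 85.7 to 196 CPM in control, 10.1 to 24.7 in NHD13 and 0.947 to 14.8 in NHD13/MSI2, with Hba-a1 and Hba-a2 at 0 in all 9 libraries and Hbb-b1 at 0 in all but 1 control, which had 1 count. Beside Erg and Fli1, which endothelial cells also express, the endothelial list summed to 238 to 390 CPM in control, 388 to 576 in NHD13 and 456 to 577 in NHD13/MSI2, with Cdh5 at 0 in NHD13. Pecam1, at 160, 320 and 495 CPM on average, made up most of this sum, while Emcn averaged 24.2, 16.7 and 0.15 CPM, Tie1 76.8, 48.1 and 3.99 CPM and Kdr 1.14, 1.8 and 0.0583 CPM. The part of these cell types in the changes of the members was not tested. The other lists are given in the order control, NHD13 and NHD13/MSI2. The B cell genes summed to 46.5 to 58.7, 83.5 to 129 and 262 to 448 CPM. Cd79a and Cd79b averaged 184 and 151 CPM of this in NHD13/MSI2. Pax5 averaged 0.0409, 0.618 and 2.86 CPM, and Ebf1 1.52, 1.13 and 0.257 CPM. The T cell genes summed to 38 to 50.5, 203 in both NHD13 libraries and 51 to 86.7 CPM. Lck averaged 193 CPM of this in NHD13, where the other genes listed averaged 0.092 (Cd3d) to 7.64 CPM (Cd4). Late neutrophil genes summed to 881 to 2410, 134 to 512 and 197 to 610 CPM. Mast cell and basophil genes summed to 17.8 to 65.2, 8.51 to 14.1 and 4.22 to 9.95 CPM.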

How the data were processed

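RNA was sequenced from sorted LSKs in 9 libraries, grouped by the sample labels. The authors deposited whole-number read counts per gene symbol without normalization, and their processing notes name STAR, HTSeq, DESeq and the build mm9. Versions and the strand setting are not given in the sources used here. Names beginning with March collapsed to 11 date-like names in the table, so later names stand 2 rows too high and 2 rows at the end are blank. Each of the 11942 later names was shifted 2 rows down, and 13 rows with no settled name (0.0253% to 0.0323% of a library) were left out.

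Counts were filtered by filterByExpr, scaled by TMM and fitted with the quasi-likelihood method of edgeR 4.0.16 (R 4.3.3) over all 9 libraries, with adjusted p under 0.01 as the threshold. The median prior degrees of freedom were 3.38. A floor of 3 counts corresponds to 0.13 to 0.156 CPM before TMM, which covers counting error only. Libraries differed from each other by more than counting noise, so each was counted once. On simulated counts the test called 158 of 200 changed genes. The planted changes were of 2 log2 units or more in either direction, so smaller changes were not covered. Alternatives were DESeq2 1.42.0, RLE or no factors, other filters and thresholds, fits of 2 groups, a replicate block, a robust fit, the names as deposited, control replicate 2 alone, and each library left out.

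All 10 members are named; of each partner list at most 4 called genes per comparison are named, by smallest adjusted p, and 2 genes nearest in profile (prior count 2) to each member called. Msi2, Hoxd13, Xist and Eif2s3y check the labels. The members and lists were chosen with earlier results of these data known, and 2 genes of the lists are not reported here. Positions, exon lengths (GENCODE M21) and promoters (RefSeq) are on GRCm38, not the build of the counts.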

Additional observations from a re-analysis of the deposited data

Results flagged for a closer look

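In groups of 4, a library was picked out when its gap to the nearest other library exceeded Dixon's limit, a fixed share of the group's range, which chance does in about 1 in 20 groups. Of 31 genes examined in the NHD13/MSI2 group, 4 had such a library, and in 3 of them it was replicate 4. Fli1 was at 828 CPM in replicate 4, against 368 to 384 CPM in the other 3. Msi2 was at 241 CPM in replicate 4, against 77.1 to 88 CPM. Akr1c13, the gene nearest to Hlf in profile, was at 1.1 CPM in replicate 4, against 0 to 0.181 CPM. Chic1, the gene nearest to Prdm16, was at 0.724 CPM in replicate 3, against 0 to 0.0499 CPM, and Prdm16 itself was highest in that library. Chic1 was picked for its likeness to Prdm16 over these same libraries and had 0 to 16 counts in the group, so this is no separate evidence.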

How the results depend on the processing

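Genes called in NHD13/MSI2 over NHD13 numbered 423, with 5 members lower. They numbered 1286 with DESeq2 (1 member higher), 1177 at an adjusted p under 0.05, 30 in a fit of only the 2 groups (0 members lower), and 38 with control replicate 2 as the only control (0 lower). With 1 library left out they ranged from 128 to 646, with 2 to 5 members lower and 0 to 1 higher. Over control, 1474 genes were called, against 2589 with DESeq2, 2745 at 0.05 and 95 with control replicate 2 alone (1 member lower). With 1 library left out they ranged from 647 to 2066, with 5 to 6 members lower and 0 to 1 higher. In NHD13 over control, 138 genes were called, against 594 with DESeq2 (2 members lower), 386 at 0.05 (2 lower), 83 in a fit of the 2 groups (0 lower) and 7 with control replicate 2 alone (0 lower). With 1 library left out they ranged from 38 to 251, with 0 to 1 members lower. Fits with fewer libraries have fewer degrees of freedom; other causes were not tested.

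Deviations from the group mean had correlations of -0.07 to 0.19 between same-numbered libraries of different groups. With groups this small, these correlations cannot decide whether the numbers pair the libraries. With the replicate block 203 genes were called in NHD13/MSI2 over NHD13 with 3 members lower (Hlf, Mycn and Prdm16), and 1 member, Lyl1, was higher over control (0.74 on the log2 scale, adjusted p = 0.00461, edgeR). Replicate number 4 exists only in NHD13/MSI2, so the block in effect sets that library aside. The fit without that library gave 0.75 for Lyl1 over control. With the block Fli1 was at -0.014 in NHD13 over control.

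With the names as deposited, only names after the March genes take the counts of another row. Among the members these are Mllt3, Mycn, Prdm16 and Tal1. Hlf, Erg, Fli1, Etv6, Lmo2 and Lyl1 stand before the March genes and keep their counts. With those names 1 member, Hlf, was lower over NHD13 and over control. In NHD13/MSI2 over NHD13 the log2 fold changes were then 0.2 for Mllt3 and 0.046 for Tal1. Over control they were 0.24 for Mllt3, 0.15 for Tal1 and -0.075 for Ssbp2. In NHD13 over control they were 0.039 for Mllt3, -0.51 for Mycn, 0.1 for Tal1, -0.096 for Ssbp2 and -0.61 for Mllt6. Few other values changed sign, none of them called. Runx1 in NHD13/MSI2 over NHD13 was -3e-04 without factors, and Lmo2 was 0.22 without NHD13 replicate 1 (-0.29 to 0.22 over all left-out libraries). Fli1 in NHD13 over control (0.011) was -0.0086 with RLE factors, -0.0015 without factors and -0.0087 with DESeq2. With 1 library left out it was -0.033 (control replicate 2), -0.44 (NHD13 replicate 1), -0.0012, -0.00099 and -0.0011 (NHD13/MSI2 replicates 1, 2 and 4), within a range of -0.44 to 0.35. Hlf, Mllt3, Mycn, Prdm16 and Tal1 had the same sign over NHD13 and over control in all 19 alternatives that keep the moved names. At this depth Hlf in NHD13/MSI2 rests on 1 to 12 counts.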
